A study of Homo sapiens with 4 samples.

Results

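The aminoacyl-tRNA synthetases are described here, the enzymes that join each amino acid to its transfer RNA (tRNA) before translation. A set of 36 of them was taken by name, 20 cytosolic and 16 mitochondrial (the names that end in 2), out of 43317 gene names on the array. The array's older names are kept, and current symbols add a 1 to most cytosolic names (AARS is now AARS1). RNA was measured after transfection of miR-891b or of NC1, a negative control RNA, with the lipid reagent Dharmafect1 in HCT116 colorectal cancer cells and A549 lung cancer cells. Each of the 4 groups, a line with either RNA, had 1 array, so no difference within a line has a replicate check or a p-value. The labels list McCoy's 5A medium for HCT116 and DMEM for A549, so line and medium cannot be told apart, nor line and slide, since both arrays of a line shared a slide. The study concerns PSAT1, an enzyme of serine synthesis, and the release of extracellular vesicles, and the comparison here asks how genes for tRNA charging stood with miR-891b relative to NC1.

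Human cells carry separate sets of synthetases for the cytosol and the mitochondrion, all encoded in the nucleus. KARS and GARS, counted as cytosolic here, each encode the enzyme of both compartments, EPRS charges glutamate and proline in one protein, and FARSA and FARSB are the subunits of one enzyme. Uncharged tRNA activates the kinase GCN2 (EIF2AK4), which leads to translation of the transcription factor ATF4, and ATF4 in turn raises many cytosolic synthetase genes as well as ASNS and PSAT1.

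The transfected RNA is shown first, since it defines the comparison, with its seed (bases 2 to 8) in capitals as listed by RefSeq (GRCh38.p14, chrX:146001100-146001121, minus strand).
hsa-miR-891b: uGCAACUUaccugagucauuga
The 7 bases that pair with the seed, AAGTTGC, were in 0 of the 41 probe sequences of the 36 genes and in 229 of 58201 gene probes (0.394%). A probe covers 60 bases, so the rest of each transcript was not searched.

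Promoter windows (250 bases before to 50 after a gene's start, RefSeq, GRCh38.p14) were given for 30 of the 36 genes. They were searched on both strands for the composite element bound by ATF4 with C/EBP proteins, written TGATGNAA or, on the other strand, TTNCATCA. It was found in 7 of 16 cytosolic genes with a window, in 1 of 14 mitochondrial genes and in 1217 of 27305 genes of the whole table (4.46%). The matches are shown because they mark which members carry the element, in capitals, in the direction of the gene.
AARS (chr16:70289677-70289702, minus strand): ttctcgcagTTGCATCAgccaagtta
CARS (chr11:3057409-3057434, minus strand): gggcggcggTTGCATCAgattctagg
GARS (chr7:30594836-30594861, plus strand): acgcggcgaTTTCATCAtgctccgag
IARS (chr9:92293694-92293719, minus strand): ttcagcgcgTTGCATCAcctccgtgc
MARS (chr12:57488055-57488080, plus strand): cggttccggTTGCATCAgcgagggat
NARS (chr18:57621806-57621831, minus strand): tacgctctcTGATGCAAcgccggaat
TARS (chr5:33440958-33440983, plus strand): gcctttcgaTTGCATCAgctggtcca
YARS2 (chr12:32756078-32756103, minus strand): ccacactgcTGATGGAAaaattaagt
All 7 cytosolic matches belonged to the 12 cytosolic genes listed here as known ATF4 targets, of which 10 had a window. Among the other 8 cytosolic genes, 0 of 6 windows held it. That list was written with earlier results of these data known, from general knowledge, which rests in part on such elements. A match is a stretch of letters, and binding was not measured.

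The signals were bright enough to measure nearly all members. On every array 35 of the 36 genes passed the scanner software's limit for a signal well above background, and MARS2, the mitochondrial methionine enzyme, was so on the HCT116 arrays only. Values are log2 signals relative to the 75th percentile of the array, and a change is miR-891b minus NC1. Between 44.7% and 50.3% of gene probes were well above background per array, and no gene spot was saturated. The spread of a change over the spots of one probe had a median SD of 0.061 in HCT116 and 0.071 in A549, which covers the spots but not the cultures. For genes with 2 measured probes, the changes of both probes differed by a median of 0.18 in HCT116 (4344 genes). In A549 the median was 0.23 (4899 genes). A member's change of about that size is thus within what another probe of the gene could give. These medians are not upper limits, since a small share of genes had probes more than 0.559 apart in HCT116 and 0.779 in A549. No member's change was that large in HCT116, where RARS2 had the largest (0.41). In A549 LARS2, YARS and KARS exceeded it, and LARS (-0.78) was about equal to it. Each line carried its own markers, with ALDH1A1 at 9.48 in A549 NC1 and not well above background in HCT116, and CDX2 at 2.50 in HCT116 NC1 and -2.72 in A549 NC1. Of the 6 markers listed for HCT116, GPA33 did not pass the background limit in either line, CDH1 was similar on the NC1 arrays (3.25 and 3.01) and the other 4 were higher in HCT116. All 6 A549 markers were higher in A549. Within HCT116 the A549 marker AKR1B10 was at -2.29 on NC1 and 2.18 on miR-891b, and its part in the results was not tested. ALDH3A1, NQO1 and KRT81 were not higher on miR-891b there, and ALDH1A1 and AKR1C1 did not pass the background limit on that array. Areas of stray signal held the probes of 5 members on HCT116 NC1 (CARS, NARS, QARS, WARS and YARS2), of 2 on HCT116 miR-891b (IARS and MARS2) and of 0 on either A549 array.

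**Figure D1:**
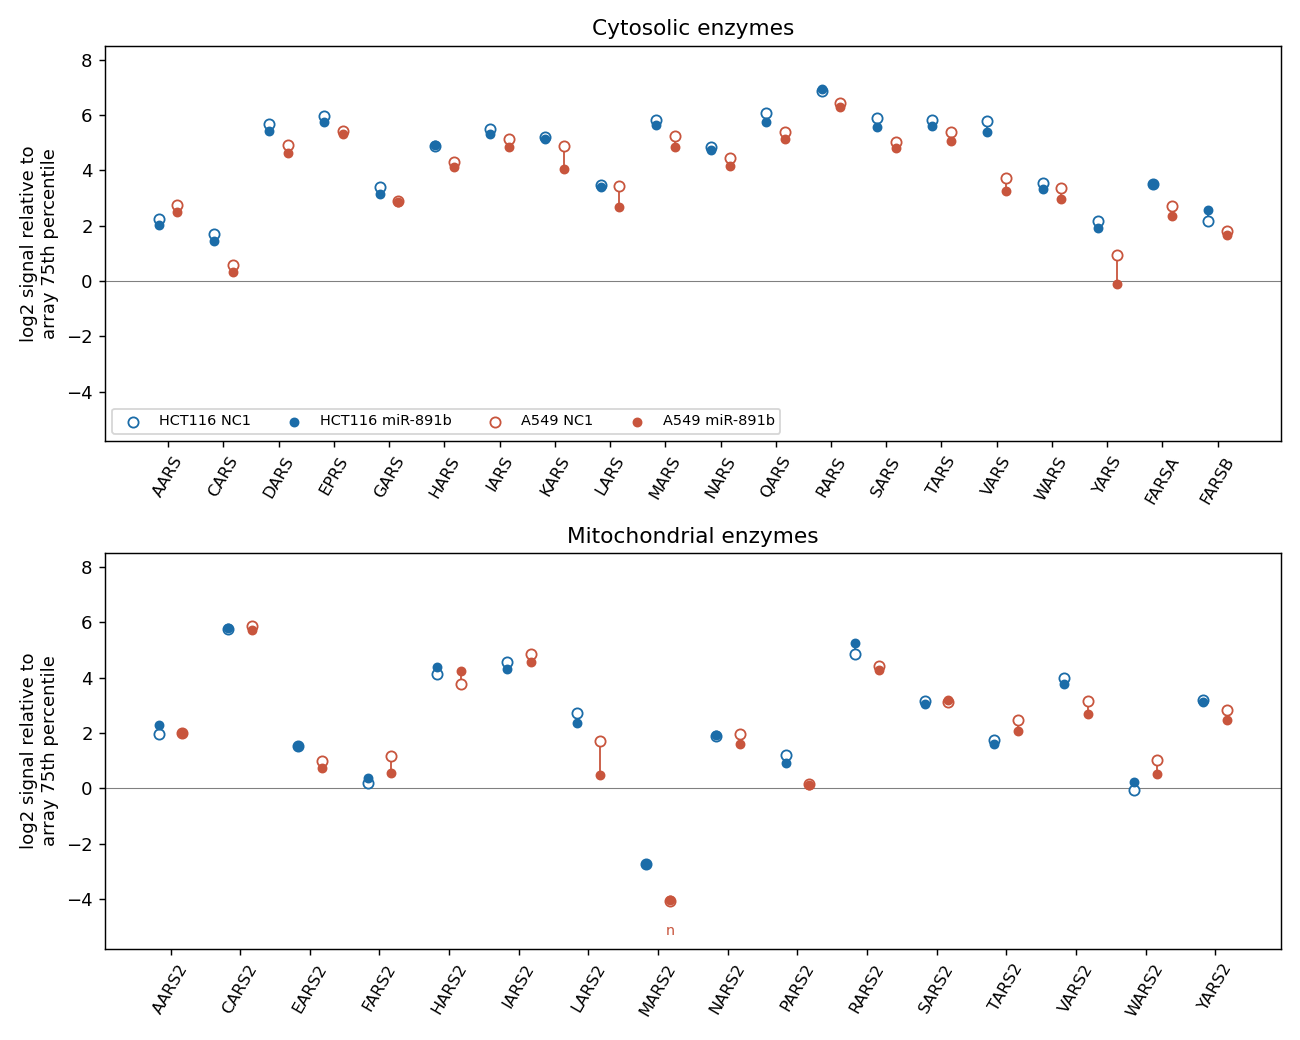
Log2 signal relative to the array's 75th percentile (vertical axis) for each of the 36 genes, with NC1 as open circles and miR-891b as filled circles, HCT116 in blue and A549 in red, 1 array per circle; the letter n marks MARS2, not well above background in A549. In A549 the filled circle lies below the open one for all 20 cytosolic genes, and the widest gaps are those of LARS2 (1.73 to 0.48) and YARS (0.94 to -0.12).

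In HCT116 the cytosolic enzymes stood slightly lower with miR-891b and the mitochondrial enzymes did not shift as a set. Of the 20 cytosolic genes, 17 were lower and 3 higher, with a median change of -0.21. With quantile normalization or median scaling 16 were lower, and with normexp background correction followed by quantile normalization 14 were. Of the 16 mitochondrial genes, 8 were lower and 8 higher, with a median of -0.0020. Over all 19104 genes measured in HCT116 the median was -0.041, with 55.5% of genes lower. Among the 8700 genes in the signal range of the cytosolic enzymes (mean log2 signal 1.01 to 6.63) the median was -0.042, with 56.3% lower. The mitochondrial median lay above the cytosolic one by 0.21. In RNA of whole cultures, fewer cells with a transcript and less of it per cell cannot be told apart. No member reached 1.5-fold in HCT116 in either direction, where 5.65% of all genes were at least 1.5-fold lower and 3.91% at least 1.5-fold higher. At 2-fold those shares of all genes were 0.843% and 1.16%. Among the genes in the signal range of the cytosolic enzymes they were 3.41% and 1.25% at 1.5-fold and 0.253% and 0.276% at 2-fold. Leaving out the genes in areas of stray signal gave a cytosolic median of -0.20 over 16 genes and a mitochondrial median of 0.0023 over 14.

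The lowest cytosolic change in HCT116 was that of VARS, the valine enzyme, with 5.80 on NC1 and 5.40 on miR-891b, a change of -0.40. VARS was also lower in A549, at 3.71 and 3.26, a change of -0.44. Both values lay close together, so VARS stood lower by about the same amount in both lines. The highest was FARSB, the beta subunit of the phenylalanine enzyme, with 2.17 on NC1 and 2.57 on miR-891b in HCT116, a change of 0.40. Its A549 signals were 1.80 and 1.65, a change of -0.15. FARSA, the partner subunit, changed by -0.027 in HCT116 and -0.37 in A549, so the subunits did not move alike in HCT116.

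The cytosolic genes listed as known ATF4 targets were the more uniform share of the set in HCT116. All 12 were lower there, from -0.32 (SARS) to -0.061 (LARS), with a median of -0.22 and an SD over genes of 0.072. Those in between were YARS (-0.28), AARS (-0.25), CARS (-0.24), GARS (-0.24), TARS (-0.22), EPRS (-0.21), WARS (-0.20), MARS (-0.18), IARS (-0.17) and NARS (-0.10). The other 8 ran from -0.40 (VARS) to 0.40 (FARSB), with a median of -0.041 and an SD of 0.26. Besides VARS and FARSB these were QARS (-0.33), DARS (-0.27), KARS (-0.055), FARSA (-0.027), HARS (0.057) and RARS (0.097). In A549 both lists had similar medians, -0.27 and -0.28, with all genes lower. Over the scalings tried, 11 or 12 of the 12 listed targets were lower in HCT116 and 9 to 12 in A549, and LARS was the one above 0 in HCT116, with normexp. Other SARS probes changed by 0.65 and -0.59 in HCT116, and the mean over its probes was -0.087. Outside areas of stray signal 9 listed targets remained in HCT116, all lower, with a median of -0.22. Both lists were written with earlier results of these data known, and the difference between them was not tested. The 7 genes with the composite element ran from -0.25 to -0.10 in HCT116, with a median of -0.22, while the 9 with a window and no element ran from -0.33 to 0.40, with a median of -0.055. In A549 the corresponding medians were -0.27 and -0.21.

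In A549 the synthetases of both compartments stood lower with miR-891b. All 20 cytosolic genes were lower, with a median of -0.27, and so were 12 of 15 measured mitochondrial genes, with a median of -0.29. The median over all 21336 genes measured was -0.059, with 55.6% lower, and over the 8714 genes in the signal range of the cytosolic enzymes it was -0.092, with 58.5% lower. LARS2, YARS, KARS, LARS and FARS2 were at least 1.5-fold lower, 5 of 35 measured, where 15.3% of all genes and 16.7% of those in the signal range were. At 2-fold the count was 2, LARS2 and YARS, where 5.57% of all genes and 6.63% of those in the signal range were. No member was at least 1.5-fold higher, where 11.1% of all genes and 8.45% of those in range were, or 2-fold higher, where 4.0% and 2.36% were. The counts of lower members past each size are near the background. Scaling bears on the direction: with median scaling 19 of 20 cytosolic and 11 of 15 mitochondrial genes were lower. With quantile normalization 16 of 20 cytosolic genes were lower in A549, and with normexp 17 of 20 were, with medians of -0.12 and -0.10. The mitochondrial counts were then 10 and 9 of 15.

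LARS2, which charges leucine in mitochondria, had the lowest change of all members in A549 (probe at chr3:45590070-45590129, hg19). Its signals there were 1.73 on NC1 and 0.48 on miR-891b, a change of -1.25, or 2.38-fold lower. In HCT116 they were 2.72 and 2.38, a change of -0.35, again the lowest of the mitochondrial enzymes. YARS, the tyrosine enzyme (chr1:33245799-33245858), was at 0.94 on NC1 and -0.12 on miR-891b in A549, a change of -1.07, or 2.09-fold lower. Its HCT116 signals were 2.18 and 1.91, a change of -0.28. With normexp and quantile normalization neither reached 2-fold in A549, where LARS2 changed by -0.86 and YARS by -0.68.

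KARS, the lysine enzyme of both compartments (chr16:75661793-75661852), was at 4.89 on NC1 and 4.05 on miR-891b in A549, a change of -0.83. In HCT116 it was at 5.20 and 5.14, a change of -0.055. LARS, the cytosolic leucine enzyme and a leucine sensor upstream of mTORC1 (chr5:145557111-145557170), was at 3.44 and 2.66 in A549, a change of -0.78. Its HCT116 signals were 3.46 and 3.40, a change of -0.061. KARS and LARS thus shared a pattern of a lower A549 signal beside a nearly level HCT116 one, and both leucine enzymes were among the 5. FARS2, the single-chain mitochondrial phenylalanine enzyme (chr6:5431290-5431349), was at 1.18 and 0.54 in A549, a change of -0.63, and at 0.21 and 0.39 in HCT116, a change of 0.18. GARS, the glycine enzyme of both compartments, had the highest cytosolic change in A549, with 2.89 on NC1 and 2.87 on miR-891b, a change of -0.019, and HCT116 signals of 3.38 and 3.15.

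The remaining cytosolic genes in A549 were WARS (-0.42), the interferon-inducible tryptophan enzyme, MARS (-0.39), TARS (-0.35), DARS (-0.32), IARS (-0.28), NARS (-0.27), CARS (-0.26), QARS (-0.25), AARS (-0.23), SARS (-0.21), HARS (-0.19), RARS (-0.17) and EPRS (-0.13). AARS, SARS, HARS, RARS and EPRS changed by no more than the 0.23 that typically separated 2 probes of a gene. EPRS and RARS were above 0 with quantile normalization and with normexp, as was GARS, which median scaling also put above 0, and SARS with quantile normalization. The 8 enzymes of the multisynthetase complex (DARS, EPRS, IARS, KARS, LARS, MARS, QARS and RARS), which binds them into one particle in the cytosol, were all lower in A549, with a median of -0.30 (6 of 8 with quantile normalization or normexp). In HCT116, 7 of the 8 were lower, with a median of -0.17 and RARS the exception (5 of 8 with normexp).

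**Figure D2:**
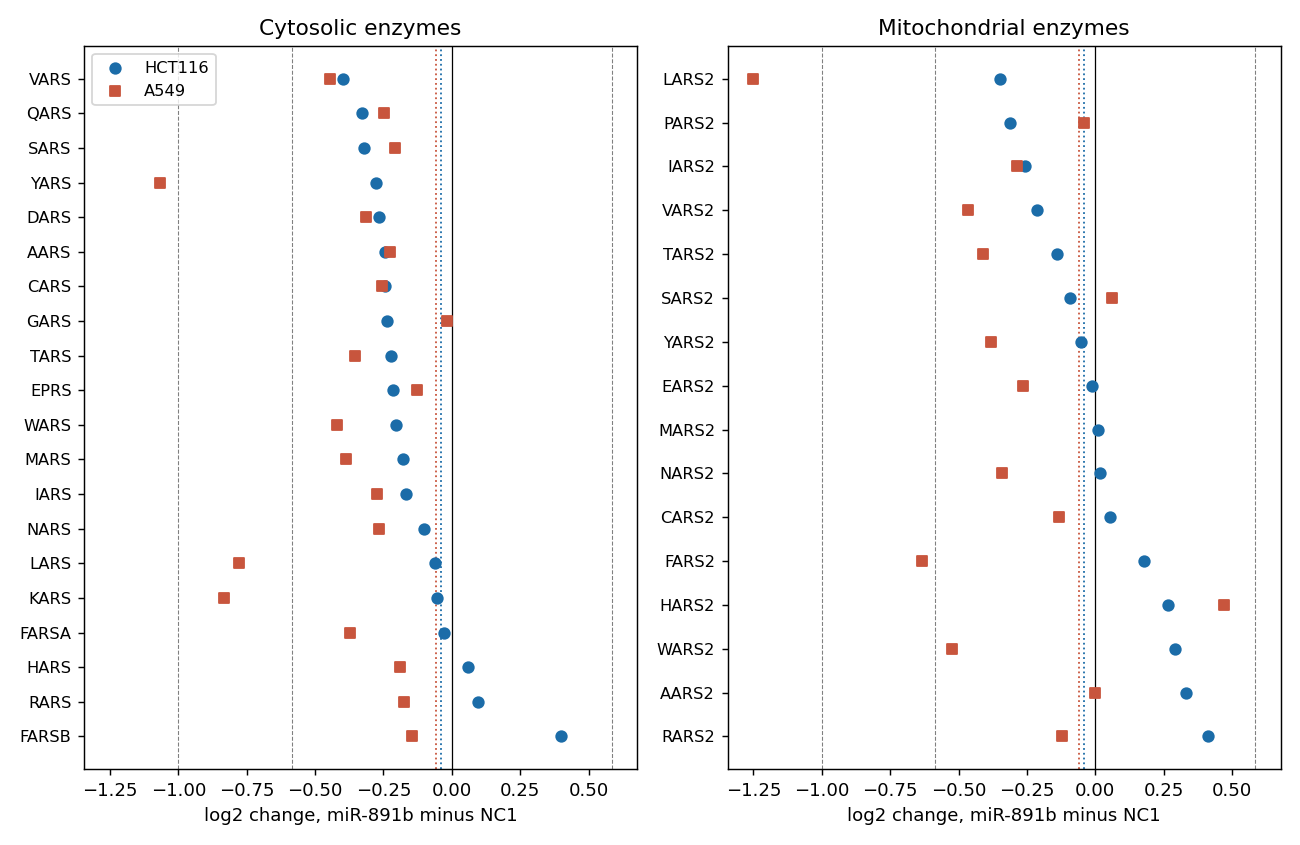
Log2 change, miR-891b minus NC1 (horizontal axis), of each gene in HCT116 (blue circles) and A549 (red squares), ordered by the HCT116 change; dotted lines mark the median of all genes in each line (-0.041 and -0.059) and dashed lines mark 1.5-fold and, on the left, 2-fold. The cytosolic circles cluster left of 0 apart from HARS, RARS and FARSB, the mitochondrial circles spread on both sides of 0, and only LARS2 and YARS in A549 lie past 2-fold.

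The mitochondrial genes varied more among themselves, with an SD over genes of 0.23 in HCT116 and 0.38 in A549, against 0.18 and 0.26 for the cytosolic genes. RARS2, the mitochondrial arginine enzyme, had the highest change in HCT116, with 4.85 on NC1 and 5.26 on miR-891b, a change of 0.41. In A549 it was at 4.42 and 4.29, a change of -0.12 that turned to 0.052 with quantile normalization and 0.064 with normexp. HARS2, the mitochondrial histidine enzyme (chr5:140078491-140078550, hg19), was the highest in A549, at 3.77 on NC1 and 4.24 on miR-891b, a change of 0.47, and also stood higher in HCT116, at 4.14 and 4.40, a change of 0.26. It was the member with the clearest higher signal in both lines. AARS2, the alanine enzyme, was higher in HCT116 by 0.33 and level in A549 (0.0005). WARS2, for tryptophan, was higher in HCT116 by 0.29, from -0.045 to 0.25, and lower in A549, where it was at 1.04 and 0.52, a change of -0.52. The other mitochondrial changes in HCT116 and A549 were -0.31 and -0.040 for PARS2, -0.26 and -0.29 for IARS2, -0.21 and -0.47 for VARS2, and -0.14 and -0.41 for TARS2. They were -0.091 and 0.063 for SARS2, -0.054 and -0.38 for YARS2, -0.014 and -0.27 for EARS2, 0.018 and -0.34 for NARS2, and 0.055 and -0.13 for CARS2. MARS2 changed by 0.0095 in HCT116.

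Partner enzymes for the same amino acid were then set against each other. In HCT116 the mitochondrial enzyme stood above its cytosolic partner in 11 of 13 pairs, with a median difference of 0.21, and the exceptions were the isoleucine and leucine pairs. The largest difference was that of the alanine enzymes (0.58) and the lowest that of the leucine enzymes (-0.29). In A549 the mitochondrial enzyme was above in 6 of 12 pairs, with a median difference of 0.019. The tyrosine (0.68) and histidine (0.66) pairs differed most there, and the leucine pair was again the lowest (-0.47). Over the alternatives on all pairs, the mitochondrial enzyme was above in 10 or 11 of 13 pairs in HCT116. In A549 it was above in 5 of 12 with quantile normalization and in 7 of 12 with normexp. Outside areas of stray signal it was above in 6 of 8 pairs in HCT116 and 4 of 8 in A549. Whether the lines differ in this was not tested. Over the 12 pairs measured in both lines, the mitochondrial enzyme was above in both lines for alanine, cysteine, histidine, arginine, serine and tyrosine, and below in both for isoleucine and leucine. In A549 the arginine (0.051) and isoleucine (-0.013) differences were smaller than the spot SD of a change (0.071). Arginine changed direction in A549 with quantile normalization (RARS2 0.052, RARS 0.11). With the mean over probes isoleucine did so in A549 (IARS2 -0.29, IARS -0.37) and serine in HCT116 (SARS2 -0.091, SARS -0.087).

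The histidine pair is a case of neighbouring genes. RefSeq places the starts of HARS and HARS2 85 bases apart on chromosome 5 (GRCh38.p14), head to head on opposite strands, so that their promoter windows overlap. HARS was at 4.87 on NC1 and 4.93 on miR-891b in HCT116, a change of 0.057, and at 4.30 and 4.11 in A549, a change of -0.19. HARS2 changed by 0.26 and 0.47, so in A549 the neighbours stood apart in opposite directions. Each is measured by 1 probe.

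**Figure D3:**
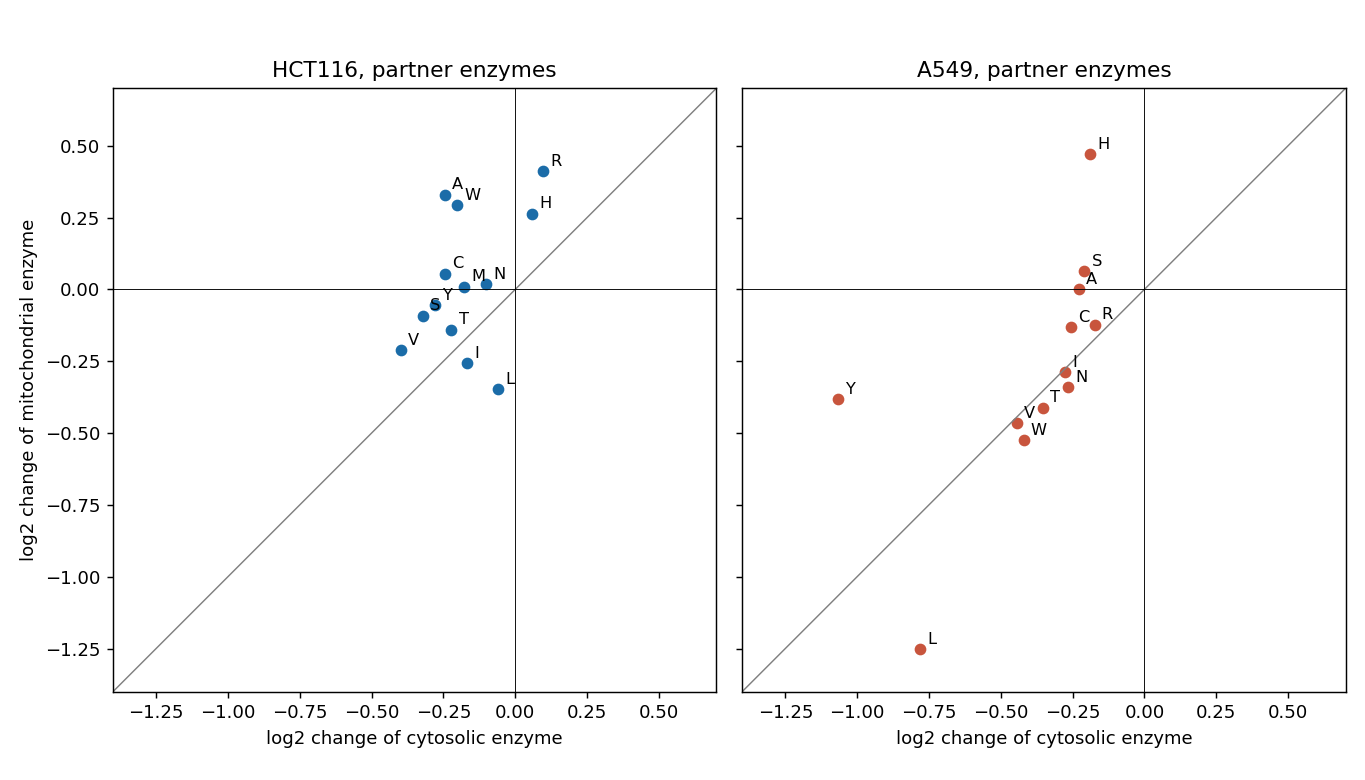
Log2 change of the cytosolic enzyme (horizontal axis) against that of the mitochondrial enzyme for the same amino acid (vertical axis), miR-891b minus NC1, each point a pair labelled with the amino acid's 1-letter code; the grey diagonal marks equal changes. In HCT116, 11 of 13 points lie above the diagonal, and in A549, 6 of 12 do, with L far to the lower left and H and Y farthest above the line.

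Only IARS, MARS and SARS had more than 1 probe. The other 2 IARS probes changed by -0.051 and -0.040 in HCT116 and by -0.26 and -0.58 in A549, and the other MARS probe by -0.37 and -0.26. The SARS probes disagreed: beside the probe with the highest mean (-0.32 in HCT116 and -0.21 in A549), one changed by -0.59 and 0.12 and another by 0.65 and 0.051. The direction of SARS therefore depends on the probe, in both lines.

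The one test of the transfection that the design allows takes both lines together, in a limma model that adds cell line to treatment and leaves 1 residual degree of freedom. After Benjamini-Hochberg adjustment 0 of 22710 genes passed 0.05 in limma, and 1214 (5.35%) passed it unadjusted. Of the 36 members 0 passed it unadjusted, and 2 did with normexp. On simulated data the model called hardly any changes of the size seen in the members, so these counts say little about them. LARS2 had a mean change of -0.80 with a standard error of 0.32 (adjusted p = 0.793 in limma), and was lower in both lines. YARS had -0.67 with a standard error of 0.30 (adjusted p = 0.793 in limma), also lower in both. Among the members measured in both lines, 17 of 20 cytosolic (85%) and 7 of 15 mitochondrial (46.7%) genes were lower in both, where 33.8% of 18061 genes were. These counts hold for the main scaling. With quantile normalization 16 of 20 cytosolic genes were lower in each line, and with normexp 14 in HCT116 and 17 in A549. Fewer cytosolic genes were thus lower in both lines under those scalings. AARS2 and HARS2 were higher in both, although the A549 value of AARS2 was close to 0.

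The levels in the control cells differed between the lines in the same compartment. On the NC1 arrays, 19 of 20 cytosolic genes were lower in A549 than in HCT116, where 55.05% of 19217 genes were. The cytosolic median difference was -0.51, against -0.10 over those 19217 genes. Under the other scalings 18 of 20 were lower, with medians of -0.42 to -0.33. VARS differed most, at 3.71 against 5.80, a 4.26-fold lower signal in A549. YARS (-1.24) and CARS (-1.10) were the other cytosolic genes at least 2-fold lower, 3 of 20, where 16.2% of all genes were. AARS was the one cytosolic gene with a higher signal in A549, by 0.48. The mitochondrial genes showed no common direction, with 8 of 15 lower and a median difference of -0.0096 (7 of 15 under the other scalings). That count was near the share of all genes. PARS2, for proline, was 2.09-fold lower in A549 (-1.06), and WARS2 was 2.13-fold higher (1.09), where 11.1% of all genes were at least 2-fold higher. These differences compare lines, media and slides at once.

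Other genes of tRNA charging and its use were taken as lists. The complex scaffolds and elongation factor 1 subunits were lower in A549 for all 8 genes, with a median of -0.59 and 4 at least 1.5-fold lower, where 15.3% of all genes were. With quantile normalization 7 of 8 were lower (median -0.32), and with normexp the median was -0.29. EEF1E1, a scaffold of the multisynthetase complex, was at 3.89 on NC1 and 2.79 on miR-891b there, a change of -1.10, against 4.23 and 4.33 in HCT116, a change of 0.10. Its second probe changed by -1.13 in A549 and 0.060 in HCT116, close to the first. The scaffolds AIMP1 (0.018 in HCT116 and -0.23 in A549) and AIMP2 (-0.17 and -0.42) differed less. In HCT116, 6 of the 8 genes were lower, with a median of -0.16. Of these, 1 (EEF1A2, -0.65) was at least 1.5-fold lower, where 5.65% of all genes were. The mitochondrial tRNA amidation and elongation genes were higher in HCT116 for 7 of 8, with a median of 0.22, and lower in A549 for 6 of 8, with a median of -0.26. The tRNA maturation and export genes were higher in HCT116 for 11 of 17 (median 0.091) and lower in A549 for 12 of 17 (median -0.23). XPOT, the tRNA exporter, changed by -0.081 and 0.063. In neither of these last lists was any gene past 1.5-fold, and over all genes 55.5% were lower in HCT116 and 55.6% in A549. Their A549 medians moved closer to 0 with quantile normalization (-0.11 and -0.078) and with normexp (-0.032 and -0.10).

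Genes of uncharged tRNA sensing and the stress response spread more widely, with an SD over genes of 0.60 in HCT116 and 0.94 in A549. In HCT116, 14 of 17 were lower (median -0.41), 7 of them at least 1.5-fold and 4 at least 2-fold, where 5.65% and 0.843% of all genes were. Outside areas of stray signal 11 of 13 were lower there, with a median of -0.36. In A549, 10 of 17 were lower (median -0.18), with 4 at least 1.5-fold lower and 2 of these at least 2-fold, where 15.3% and 5.57% of all genes were. Another 2 were at least 2-fold higher there, where 4.0% of all genes were. Over all genes 55.5% were lower in HCT116 and 55.6% in A549, so the A549 count of lower genes was near the background. The A549 median was -0.091 with quantile normalization and -0.040 with normexp. ASNS, the asparagine synthetase gene driven by ATF4, was at 7.46 on NC1 and 6.41 on miR-891b in HCT116 and at 4.97 and 4.26 in A549, changes of -1.05 and -0.71. ATF4 mRNA changed by -0.36 and -0.48, and EIF2AK4 by 0.011 and 0.47. The 2 genes at least 2-fold lower in A549 were PSAT1 (-0.81 in HCT116 and -1.58 in A549) and PHGDH (-0.92 and -1.50). The PHGDH probe lay in an area of stray signal on HCT116 miR-891b. The synthetase genes on the ATF4 list also stood lower in HCT116, by less than ASNS (median -0.22), and a link to ASNS or ATF4 was not tested. The cytosolic synthetases outside that list had a median of -0.041 there. In A549 the listed and the other cytosolic synthetases had medians of -0.27 and -0.28. NUPR1 (-1.86 in HCT116 and 2.13 in A549) and DDIT3 (-0.61 and 1.56), both induced in stress, went in opposite directions in the lines.

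**Figure D4:**
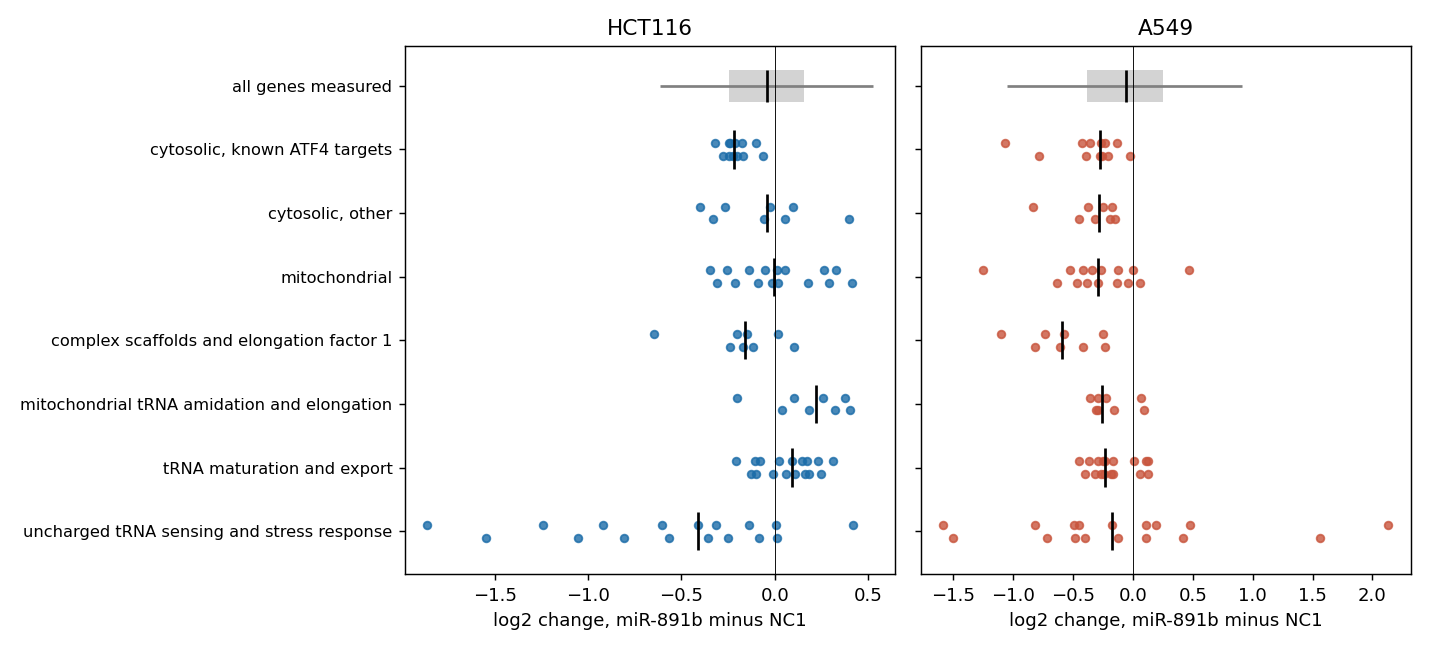
Log2 change, miR-891b minus NC1 (horizontal axis, with a wider range in A549), of the genes of each list in HCT116 (left) and A549 (right), 1 point per gene with the list median as a black bar; the top row gives all genes measured, with the median, the 25th to 75th percentile as a box and the 5th to 95th as a line. In HCT116 the ATF4-listed cytosolic synthetases lie within -0.32 and -0.061, and in A549 the elongation factor list has the lowest median (-0.59).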

How the data were processed

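Cy3-labelled RNA (100 ng) was hybridised to 4 Agilent arrays of 1 colour, per the labels, and nothing says how many cultures each array holds. The scanner files as deposited hold intensity values from Feature Extraction 11.5.1.1, background-subtracted and detrended within each array per the file headers, with probe coordinates on hg19. The authors' deposited table holds log2 values of unstated making. Set against the values computed here they differed by at most 0.0069 in the median of an array and by 0.11 in a single probe, so scale, centring and direction matched. Column medians ran from -3.8 to -3.6.

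Outlier spots were dropped, log2 signals averaged per probe and each array's 75th percentile subtracted. The probe with the highest mean represented a gene, and a gene counts as measured in a line if that probe passed the background limit on its pair of arrays. With 1 array per group a difference was called by size, at 1.5-fold and at 2-fold. Stray signal marks areas (10 rows and columns around a spot) where at least 10% of the spots that were dim elsewhere passed the background limit. The main values keep the 8635 probes in such areas, and an alternative left them out. The additive model used limma 3.58.1 in R 4.3.3 and was checked on simulated data. The remaining steps ran in Python 3.11.15, using pandas 2.3.3 and numpy 2.4.6. Alternatives covered background correction (normexp, offset 50), scaling, source of values, filter, probe choice and position. All members were reported, with each array's value for those past 1.5-fold and the extremes of each class. The members and lists were chosen with earlier results of these data known. Planned protein features were not analysed here.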

Additional observations from a re-analysis of the deposited data

Results flagged for a closer look

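Some genes went in opposite directions in the 2 lines. With 1 array per group none of these differences was tested, and of 18061 genes measured in both lines 45.1% had opposite signs. The difference, A549 change minus HCT116 change, was -0.25 for HARS, -0.27 for RARS and -0.54 for FARSB among the cytosolic synthetases. Among the mitochondrial ones it was -0.82 for WARS2, -0.81 for FARS2, -0.53 for RARS2, -0.36 for NARS2, -0.19 for CARS2 and 0.15 for SARS2. The signs of RARS, CARS2 and RARS2 depend on the scaling, since their A549 changes were 0.11, 0.12 and 0.052 with quantile normalization and 0.034, 0.14 and 0.064 with normexp, higher as in HCT116. Of the genes outside the set it was -1.20 for EEF1E1, -0.25 for AIMP1, 0.14 for XPOT, 2.16 for DDIT3 and 3.99 for NUPR1. Stray signal reached the DDIT3 probe on HCT116 miR-891b and a spot of the AIMP1 probe on both HCT116 arrays, and its part in these values was not tested.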

How the results depend on the processing

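The labels give no replicate numbers, so no samples were paired by number, and the model over both lines has the line as its block. Normexp background correction with quantile normalization moved the most values: the cytosolic median to -0.14 in HCT116 and -0.10 in A549, the mitochondrial median to -0.14 in A549, and the A549 counts to 3 members at least 1.5-fold lower, 1 at least 1.5-fold higher (HARS2, 0.62) and 0 at least 2-fold lower. Quantile normalization moved the A549 cytosolic median to -0.12 and the mitochondrial minus cytosolic difference there to -0.12, with 1 member (HARS2, 0.63) at least 1.5-fold higher. The cause was not tested. Without a filter on dim probes limma called 6 genes, 0 of them members. The A549 difference between compartments changed sign with the mean over probes (0.0025) and outside areas of stray signal (0.011). In HCT116 it ran from 0.16 to 0.21 over the alternatives run. The number of arrays limits the precision. The 2-fold counts under alternatives other than the dim filter were added after the data were seen.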

Other observations

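The synthetases fall into 2 classes of unrelated fold, class I and class II, which was not used to choose them. In A549 all 18 measured class I genes were lower with miR-891b (14 with quantile normalization or normexp), with a median of -0.33, and 14 of 17 class II genes were (12 with any other scaling), with a median of -0.23 and AARS2, HARS2 and SARS2 the exceptions. In HCT116, 14 of 19 class I genes (median -0.18) and 11 of 17 class II genes (median -0.091) were lower. Over all genes 55.6% were lower in A549 and 55.5% in HCT116. With normexp 12 of 19 class I and 9 of 17 class II genes were lower in HCT116, where 53.9% of all genes were. The difference between the classes was not tested.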
